A study of Rattus norvegicus with 9 samples.

Results

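The genes described here code for the potassium channel subunits of the rat supraoptic nucleus other than the Shaker-type Kcna genes. They were taken as every probe set of the array whose platform annotation gives exactly 1 gene symbol, beginning with Kcn but not with Kcna. This gave 68 probe sets of 45 genes, out of 8799 probe sets on the array, where 4736 genes have a probe set with 1 symbol. The supraoptic nucleus lies in the hypothalamus, its magnocellular neurons secrete vasopressin and oxytocin, and withholding water is a stimulus to the release of both hormones. RNA came from male Sprague Dawley rats of 10 to 12 weeks in 3 groups, which were controls, rats dehydrated for 1 day and rats dehydrated for 3 days. Each group had 3 arrays, which carry the letters a, b and c in every group. The labels do not say whether an array holds 1 animal or a pool, so the p-values below reflect how far these samples scatter, and some of that scatter may be technical. The nucleus is bulk tissue with glia and vessels as well as neurons, so that fewer cells of a type and less RNA per cell cannot be told apart.

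Potassium channels let potassium leave the cell and so pull the membrane potential away from the firing threshold. Voltage-gated subunits (Kv, EAG, KCNQ) end the action potential and set the interval to the next, calcium-activated subunits (BK and SK) carry the afterhyperpolarisation, and inward rectifiers (Kir) and 2-pore channels (K2P) hold the resting potential. In magnocellular neurons these currents shape the phasic and burst firing on which hormone release depends, while inward rectifiers of astrocytes take up the potassium that active neurons release.

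By family the 68 probe sets were 22 for inward rectifiers (15 genes), 11 for the EAG family (8 genes), 6 for BK (2 genes), 6 for Kv3 (3 genes), 5 for Kv4 (2 genes), 5 for electrically silent subunits (5 genes), 4 for 2-pore channels (3 genes), 3 for KCNQ (2 genes) and 2 for SK (2 genes). The auxiliary subunit Kcne1 had 2 probe sets, and Kv2 (Kcnb2) and the sodium-activated Slack channel (Kcnt1) had 1 each. Of the 45 genes, 17 had more than 1 probe set and 28 had 1.

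The deposited values are MAS5 signals, a linear brightness scaled to a common target, and a probe set was tested if its mean over the 9 arrays reached 23.1, the 40th percentile of the array. Of the 68 probe sets 37 passed (54.41 percent), against 60.03 percent of all 8740 probe sets that are not array controls. Of the 45 genes 28 had a tested probe set and 17 had none. The mean signal exceeded 100 in 7 members. The member just inside the filter was Kcnh6 with a mean of 23.2, and the member just outside it was Kcnj15 with 21.6. The 31 untested probe sets had means from 3.16 to 21.6, and their single signals ran from 0.5 to 70.6.

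**Figure D1:**
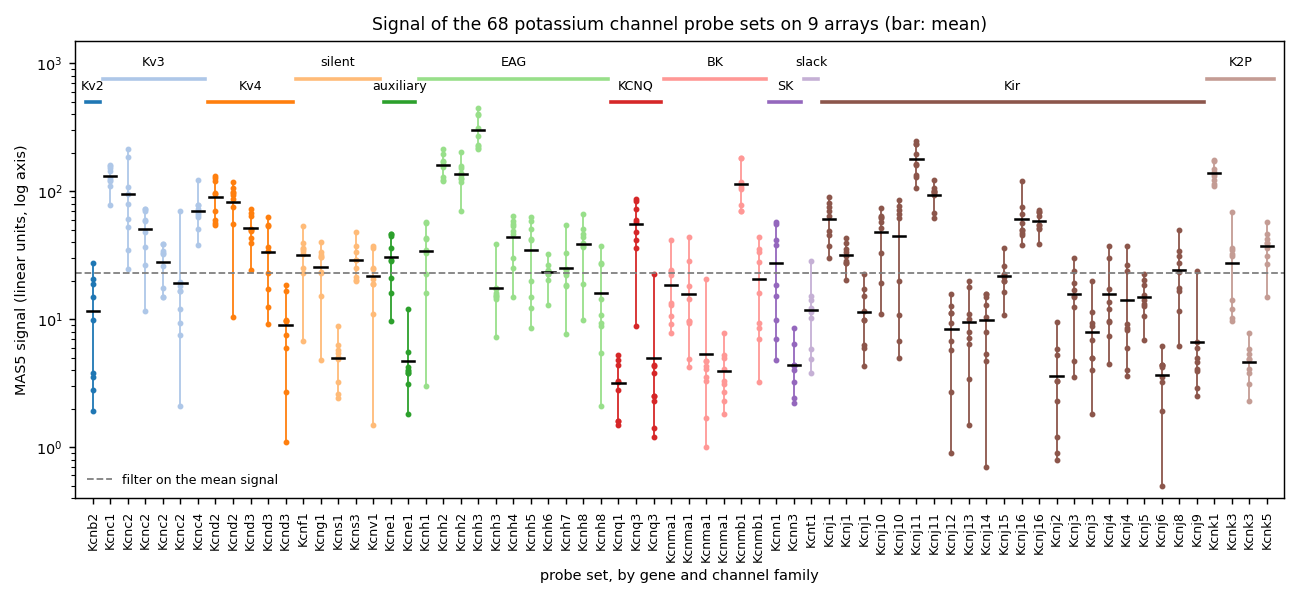
Signal of each of the 68 potassium channel probe sets on the 9 arrays (points, linear MAS5 units on a log axis), with a bar at the mean, grouped along the x axis by gene and family (colours and upper labels). The dashed line is the filter at a mean of 23.1. Means lie below it for 31 probe sets and above 100 for 7.

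Dehydration was not followed by a change in any tested subunit that passed the test at either time. On log2(signal + 4) the limma fit over 5247 probe sets called 0 of the 37 members at an adjusted p of 0.05 in the comparison of 3 days with control, where 0.0 percent of all tested probe sets were called. The comparison of 1 day with control called 0 members (0.0 percent of all), and so did the comparison of 3 days with 1 day (0.0 percent) and the F test over the 3 groups (0.0 percent). Without adjustment, at a p under 0.05, 0 members passed at 3 days against control, where 1.72 percent of all tested probe sets did. None of the 37 passed at that level at 1 day against control (1.01 percent of all), at 3 days against 1 day (1.83 percent) or in the F test (1.05 percent). The smallest unadjusted p of a member was 0.109 (Kcnc1) at 3 days against control, 0.121 (Kcne1) at 1 day against control and 0.0537 (Kcnj16) at 3 days against 1 day.

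At 3 days against control 17 tested probe sets were higher and 20 were lower. Their median log2 fold change was -0.04, within a range of -0.94 to 1.03, while the median over all tested probe sets was 0.02. At 1 day against control there were 20 higher and 17 lower members, whose median was 0.07 (range -0.85 to 0.96), against 0.02 over all. At 3 days against 1 day there were 18 higher and 19 lower members, whose median was -0.01 (range -1.05 to 0.79), against 0.00 over all. These counts moved with single arrays. Without array 1-day c, 27 members were higher and 10 lower at 1 day against control (median 0.26, against 0.05 over all), and 10 were higher and 27 lower at 3 days against 1 day (median -0.27, against -0.04 over all). Without control c, 12 were higher and 25 lower at 3 days against control (median -0.16, against -0.02 over all), while without control a 23 were higher and 14 lower (median 0.11, against 0.05 over all). The medians over all 9 arrays were small beside the error of a probe set, since the standard error of the log2 estimate had a median of 0.47 in the members and of 0.40 in all tested probe sets. The estimate exceeded its own standard error in 5 of 37 members at 3 days against control, in 10 at 1 day against control and in 8 at 3 days against 1 day. Over all 5247 tested probe sets the counts were 1349, 1201 and 1492, in the same order.

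How large a change these arrays leave possible differs from subunit to subunit. The 95 percent interval of the fold change lay wholly between a doubling and a halving, that is within 1 on the log2 scale, for 10 of the 37 members at 3 days against control, for 10 at 1 day against control and for 7 at 3 days against 1 day. Over all 5247 tested probe sets this held for 1964, 2110 and 1933, in the same order. For Kcnk1 the interval at 3 days against control ran from -0.66 to 0.50, and for Kcnh2 (probe set U75210_s_at) from -0.40 to 0.84. For Kcnj10 (U27558_at) it ran from -1.54 to 2.76, which spans more than a 2-fold change on either side of 0. These intervals are from the fit that leaves the letter of the array out. With the letter as a block in the fit, the standard error of this Kcnj10 estimate was 0.41, against 0.97 without it. The median standard error of the members was 0.40 with the block, against 0.47 without it.

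**Figure D2:**
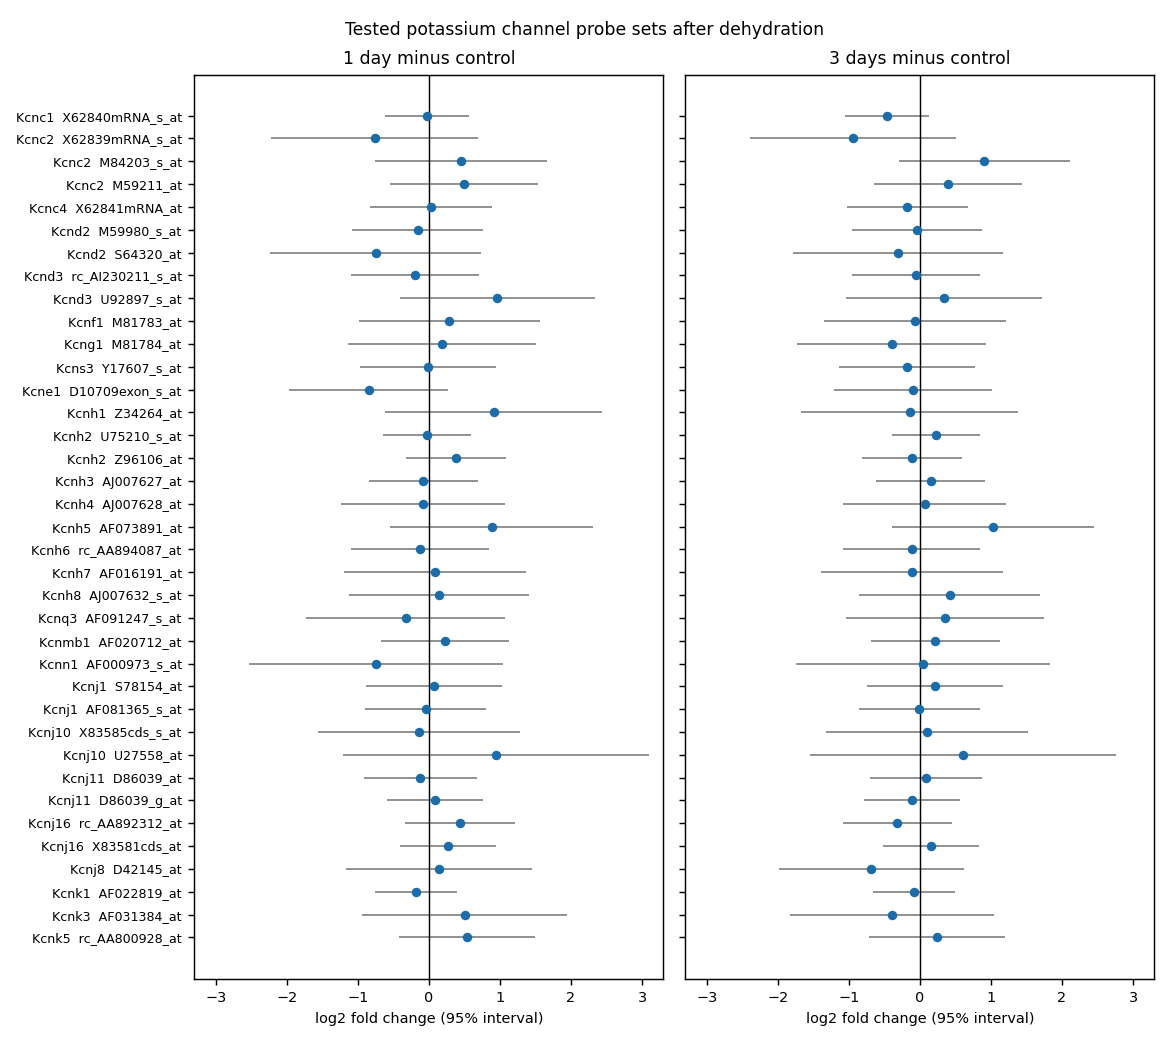
Log2 fold change with its 95% interval (limma) for the 37 tested potassium channel probe sets, at 1 day against control (left) and 3 days against control (right). All 74 intervals cross 0, and the estimates lie between -0.94 and 1.03.

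The arrays also differed in markers of the cell types of the nucleus. Arrays control c and 1-day c carried signals of 208.3 and 272.0 for Oxt, the oxytocin gene, while the other 7 arrays had 2331.1 to 4356.1. Their Avp (vasopressin) signals of 1764.9 and 1621.8 lay below those of the other 7 arrays, which had 2486.9 to 5678.3. The signals of 7 magnocellular markers summed to between 3733 and 7435 on the control arrays, between 3858 and 8218 on the 1-day arrays and between 9533 and 12561 on the 3-day arrays. At 3 days against control the estimates of 6 of them were above 0, and that of Gal was below (-0.26). For 8 astrocyte markers the sums were 6520 to 11131 (control), 6676 to 11676 (1 day) and 10725 to 13702 (3 days), and for 10 endothelial, mural and blood markers they were 2906 to 3176 (control), 3495 to 4773 (1 day) and 1770 to 2365 (3 days). The beta-globin probe sets Hbb and Hbb-b1 made up 79.7 to 91.2 percent of this last sum on every array. Of the 8 astrocyte markers 5 had estimates above 0 at 3 days against control and 3 below, which were Aqp4 (-0.28), Gja1 (-0.26) and S100b (-0.004). For 6 microglial markers the sums were 1191 to 1326 (control), 1284 to 1903 (1 day) and 1423 to 1480 (3 days), so that 3 days and control did not overlap, and the estimates of the 3 tested ones were above 0 at both times against control. Most of this sum came from Ctss, with means of 993 (control), 1252 (1 day) and 1186 (3 days). The untested Itgam, Aif1 and Csf1r had lower means at 3 days than in control (10.9 against 14.7, 14.5 against 24.9 and 9.67 against 10.1). The sums of 8 neuronal markers (3432 to 4422, 3622 to 4113 and 4076 to 4669) and of 8 oligodendrocyte markers (5022 to 7852, 4010 to 8335 and 3569 to 8378), in the same order, overlapped between the groups. What these differences contribute to the channel values was not tested, and without arrays control c and 1-day c 0 members were called in each comparison.

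The upstream sequences of 3 subunits are shown because their signals are the ones most discussed below. Kcnc1 had the smallest p at 3 days against control, Kcnj16 had the smallest p between 3 days and 1 day, and both probe sets of Kcnj10 were lowest on letter c in each group, which was seen after its values were known. Each is the 250 bases before the start of the gene in RefSeq (rat assembly GRCr8), all on the plus strand, with every CpG dinucleotide in capitals. Kcnc1 lies at chr1:106038997-106039246, Kcnj16 at chr10:96517074-96517323 and Kcnj10 at chr13:87334260-87334509.
Kcnc1: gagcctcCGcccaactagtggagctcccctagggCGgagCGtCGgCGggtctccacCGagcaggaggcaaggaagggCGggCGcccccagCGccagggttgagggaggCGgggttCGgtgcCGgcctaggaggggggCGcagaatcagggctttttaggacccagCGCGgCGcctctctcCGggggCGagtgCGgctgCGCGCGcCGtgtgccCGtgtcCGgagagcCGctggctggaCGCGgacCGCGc
Kcnj16: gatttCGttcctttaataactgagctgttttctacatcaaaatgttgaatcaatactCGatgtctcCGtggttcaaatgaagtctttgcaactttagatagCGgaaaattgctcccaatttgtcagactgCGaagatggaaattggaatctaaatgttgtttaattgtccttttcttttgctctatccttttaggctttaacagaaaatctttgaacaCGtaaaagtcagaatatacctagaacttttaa
Kcnj10: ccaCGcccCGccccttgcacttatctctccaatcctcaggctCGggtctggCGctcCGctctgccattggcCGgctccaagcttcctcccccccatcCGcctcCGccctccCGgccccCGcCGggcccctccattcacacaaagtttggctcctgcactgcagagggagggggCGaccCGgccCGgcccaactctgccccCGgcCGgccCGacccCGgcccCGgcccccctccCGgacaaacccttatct
These windows differ in composition. The GC content was 74.4 percent with 30 CpG for Kcnc1, 72.4 percent with 20 CpG for Kcnj10 and 33.6 percent with 6 CpG for Kcnj16. The GC-box letters GGGCGG, searched on both strands, were present upstream of Kcnc1 and of Kcnj10 and not in the window of Kcnj16, and TATAAA was in none of these 3 windows.

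Upstream windows were given for 32 of the 45 genes. Their median GC content was 64.4 percent, against 52.0 percent over all 27457 promoters of the RefSeq table. A CpG ratio (observed over that expected from base composition) above 0.6 was found in 12 of 20 genes with a tested probe set and in 5 of 12 genes without one, which is 53.12 percent together, against 35.36 percent of all promoters. GGGCGG was present in 12 of 20 and in 6 of 12 (56.25 percent together), against 32.39 percent of all, and TATAAA in 1 of 20 and 1 of 12 (6.25 percent together), against 13.09 percent of all. These are counts of letters in a window.

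The fast delayed rectifiers of the Kv3 family repolarise the membrane quickly and permit high firing rates. Among them Kcnc1 (Kv3.1) had the smallest unadjusted p of any member at 3 days against control. It gave signals of 123.1, 160.4 and 150.8 in control a, b and c, of 158.1, 144.8 and 121.2 at 1 day and of 126.9, 78.3 and 109.7 at 3 days. The 3-day arrays of letters b and c lay below all control and 1-day arrays, and the 3-day array of letter a lay among them. In the limma fit the log2 fold change was -0.47 ± 0.27 (SE) at 3 days against control, past neither threshold (unadjusted p = 0.109), and -0.43 ± 0.27 at 3 days against 1 day. At 1 day against control it was -0.03, and it changed sign to 0.10 without arrays control c and 1-day c.

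Kcnc2 (Kv3.2) is read by 4 probe sets, and they did not move together. Its brightest, X62839mRNA_s_at, had 107.4, 183.5 and 79.3 in control, 52.6, 215.1 and 24.7 at 1 day and 94.7, 60.7 and 34.5 at 3 days. The 1-day array of letter b was the highest of all 9 and the 1-day array of letter c the lowest. On the log2 scale the estimate was -0.94 ± 0.66 at 3 days and -0.76 ± 0.66 at 1 day against control. The estimate at 1 day turned on single arrays, with -1.58 without array 1-day b (unadjusted p = 0.0124, adjusted p = 0.999) and -0.11 without array 1-day c.

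A second Kcnc2 probe set, M84203_s_at, went the other way. It had 69.9, 11.5 and 36.9 in control, 58.2, 26.3 and 59.4 at 1 day and 73.1, 73.2 and 48.0 at 3 days. The control array of letter b was the lowest, and control a lay above 3-day c. The log2 fold change at 3 days against control was 0.91 ± 0.55, against -0.94 for the first probe set, and over the 9 arrays these probe sets correlated with r = -0.60. M59211_at had 32.7, 17.5 and 14.9 in control, 32.4, 26.2 and 33.9 at 1 day and 38.6, 38.7 and 14.8 at 3 days, with estimates of 0.40 and 0.49 at 3 days and 1 day against control. It correlated with M84203_s_at at r = 0.65 and with X62839mRNA_s_at at r = -0.11. The fourth, M59313_at, was not tested, and its 70.6 on the 1-day array of letter b stood above its other 8 signals, which were 2.1 to 19.4.

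Kcnc4 (Kv3.4), a fast-inactivating member of the family, had signals of 37.9 to 122.7, with estimates of -0.18 at 3 days and 0.03 at 1 day against control. Of the 5 tested Kv3 probe sets 2 were higher and 3 lower at 3 days against control. Kcnb2 (Kv2.2), a slow delayed rectifier, had 1.9 to 27.7 and was not tested.

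The Kv4 genes Kcnd2 (Kv4.2) and Kcnd3 (Kv4.3) form the pore of the transient A-type current, which delays the next spike. Kcnd2 (M59980_s_at) had 125.8, 59.9 and 94.9 in control, 69.5, 54.8 and 131.9 at 1 day and 97.0, 56.1 and 120.9 at 3 days. Letter b was the lowest array in each group, and the groups overlapped, with estimates of -0.04 ± 0.42 at 3 days and -0.16 ± 0.42 at 1 day against control. Kcnd2 (S64320_at) had 99.1, 92.7 and 87.3 in control, 105.5, 117.2 and 10.4 at 1 day and 55.7, 96.9 and 75.1 at 3 days. The 1-day array of letter c alone was far below the rest, and the estimate at 1 day against control was -0.75 with it and 0.21 without arrays control c and 1-day c. The 2 probe sets of Kcnd2 correlated with r = -0.58 over the 9 arrays.

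For Kcnd3 the tested probe sets U92897_s_at and rc_AI230211_s_at also parted. U92897_s_at had 36.8, 17.3 and 12.4 in control, 62.8, 54.9 and 22.8 at 1 day and 53.7, 9.2 and 34.0 at 3 days. The 1-day array was above the control array of its letter in all 3 letters, by 0.71 (a), 1.47 (b) and 0.71 (c) on the log2 scale, although the groups overlapped because 1-day c lay below control a. Its estimate of 0.96 ± 0.62 at 1 day against control was the highest of any member in that comparison, with an unadjusted p of 0.151. The second, rc_AI230211_s_at, had 67.3, 49.0 and 43.4 in control, 24.2, 50.4 and 72.8 at 1 day and 39.1, 64.1 and 50.0 at 3 days, and gave -0.20 ± 0.41 at 1 day against control. These 2 probe sets correlated with r = -0.49. The untested M74898cds_s_at had 9.7, 7.5 and 18.4 in control, 2.7, 9.9 and 1.1 at 1 day and 16.7, 9.7 and 6.0 at 3 days.

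Subunits that form no channel by themselves and modify Kv2 were dim. Kcnf1 (6.8 to 53.0), Kcng1 (4.8 to 39.8) and Kcns3 (19.9 to 47.9) were tested and had estimates of -0.07, -0.40 and -0.18 at 3 days against control. None of the 3 passed the test, and at 1 day against control 2 were higher and 1 lower. Kcns1 (2.4 to 8.8) and Kcnv1 (1.5 to 37.5) were not tested.

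Kcne1 (minK), an accessory subunit that slows the gating of its partner Kcnq1, had the smallest p at 1 day. D10709exon_s_at had 46.5, 46.5 and 20.9 in control, 36.1, 9.6 and 15.9 at 1 day and 28.8, 44.3 and 28.7 at 3 days. The 1-day array was below the control array of its letter in all 3 letters, but 1-day a lay above control c. The estimate was -0.85 ± 0.50 at 1 day against control (unadjusted p = 0.121) and 0.75 ± 0.50 at 3 days against 1 day. Its other probe set, M22412_at, was not tested, with 1.8, 4.0 and 4.2 in control, 3.8, 5.5 and 12.0 at 1 day and 3.9, 3.8 and 3.1 at 3 days. Kcnq1 itself had 1.5 to 5.2 and was not tested.

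**Figure D3:**
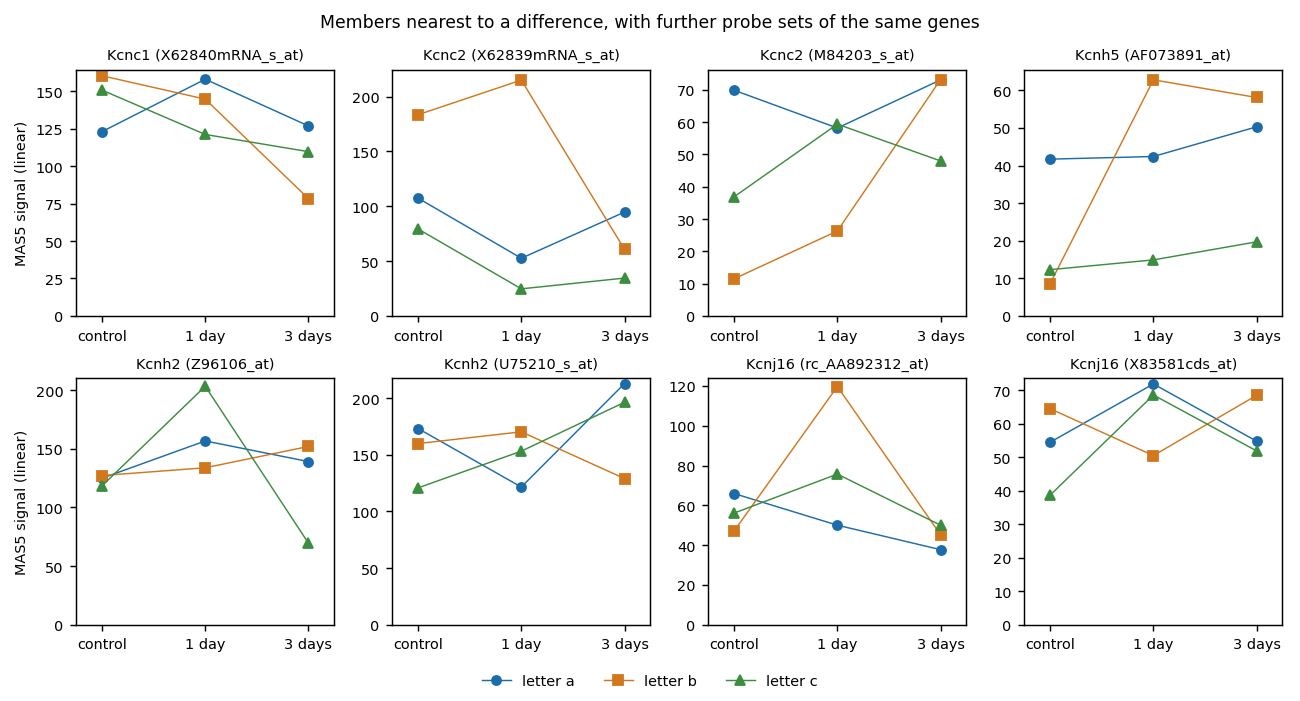
MAS5 signal (linear, y axis from 0) of Kcnc1, Kcnc2, Kcnh5, Kcnh2 and Kcnj16 probe sets in control, 1-day and 3-day arrays, with lines joining arrays of the same letter. Probe sets of the same gene part, as in Kcnc2, where X62839mRNA_s_at has its highest signal on 1-day b and M84203_s_at does not.

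The EAG family holds the slowly gated Eag, Erg and Elk channels, and 9 of its 11 probe sets were tested. Kcnh2 (Erg1) gave the single tested member whose groups did not overlap. Z96106_at had 156.8, 133.9 and 203.5 in 1-day a, b and c, against 125.0, 127.3 and 118.5 in control. Every 1-day signal was above every control signal, and the lowest 1-day array exceeded the highest control array by less than the range of the control group. The estimate was 0.38 ± 0.32 (unadjusted p = 0.257). At 3 days the signals were 139.2, 152.1 and 69.5, on both sides of control, with an estimate of -0.11 ± 0.32 against control and -0.50 ± 0.32 against 1 day. Not overlapping at 1 day against control held for 1 of 37 members (2.7 percent) and for 4.21 percent of all tested probe sets. At 3 days it held for 0 members against control (7.74 percent of all) and for 0 against 1 day (5.72 percent of all).

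The second Kcnh2 probe set did not have this pattern. U75210_s_at had 173.3, 160.0 and 120.9 in control, 121.6, 170.4 and 153.3 at 1 day and 213.0, 129.1 and 196.5 at 3 days. The groups overlapped, and the estimates were -0.03 ± 0.28 at 1 day and 0.22 ± 0.28 at 3 days against control. The 2 probe sets of Kcnh2 correlated with r = -0.40 over the 9 arrays.

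Kcnh5 (Eag2) had the highest estimate of any member at 3 days. Its signals were 41.7, 8.6 and 12.3 in control, 42.4, 62.8 and 14.9 at 1 day and 50.3, 58.1 and 19.7 at 3 days. Each dehydrated array was above the control array of its letter, but for letter a by little, and 3-day c lay below control a. On the log2 scale the difference was 1.03 ± 0.65 at 3 days (unadjusted p = 0.140) and 0.88 ± 0.65 at 1 day against control. It rested mostly on letter b, where the difference at 3 days was 2.30, against 0.25 for letter a and 0.54 for letter c.

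Kcnh1 (Eag1) had 22.4, 15.9 and 34.9 in control, 32.8, 56.5 and 57.0 at 1 day and 42.5, 3.0 and 42.7 at 3 days. The 1-day arrays were above control within each letter, while 1-day a lay below control c, and 3-day b was the lowest array. The estimate was 0.91 ± 0.69 at 1 day against control and -1.05 ± 0.69 at 3 days against 1 day. Without the 3-day array of letter b the spread of the fit was smaller, and the estimate at 1 day against control, still 0.91, had an unadjusted p of 0.0455 (adjusted p = 1.00).

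Kcnh3, an Elk-type subunit, had the highest mean signal of the members, and its arrays followed the letter. AJ007627_at had 392.2, 217.7 and 270.3 in control, 400.6, 214.7 and 226.0 at 1 day and 448.1, 229.5 and 309.6 at 3 days. In each group letter a was the highest and letter b the lowest. The estimates were -0.08 ± 0.35 at 1 day and 0.15 ± 0.35 at 3 days against control. The untested AF073892_s_at of this gene had 17.1, 15.5 and 7.3 in control, 16.1, 17.4 and 14.8 at 1 day and 38.7, 15.3 and 14.4 at 3 days.

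The other tested members of the family were Kcnh4 (15.0 to 63.5), Kcnh6 (13.0 to 32.4), Kcnh7 (7.7 to 54.5) and Kcnh8 (9.9 to 65.9). Their estimates against control lay between -0.12 and 0.42 at 3 days and between -0.13 and 0.14 at 1 day. Over the 9 tested EAG probe sets 5 were higher and 4 lower at 3 days against control, and the same count held at 1 day.

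Kcnq3 (Kv7.3) is a subunit of the M current, which muscarinic receptors close. AF091247_s_at had 73.0, 41.8 and 36.2 in control, 86.9, 57.7 and 8.8 at 1 day and 84.6, 59.8 and 48.3 at 3 days. Letter a was the highest and letter c the lowest in each group. The estimate was 0.35 ± 0.63 at 3 days and -0.33 ± 0.63 at 1 day against control, and the value at 1 day became 0.33 without arrays control c and 1-day c. The untested AF087454_at had 2.5, 4.4 and 1.2 in control, 2.3, 4.3 and 1.4 at 1 day and 3.8, 22.5 and 2.5 at 3 days.

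The calcium-activated channels are of interest in these neurons for their afterhyperpolarisations, but the pore of BK was dim on this array. The 4 probe sets of Kcnma1, the BK pore, had signals from 1.0 to 43.7 and means no higher than 18.4, and none was tested. Its accessory subunit Kcnmb1, which raises calcium sensitivity and is best known from smooth muscle, had 108.6, 117.6 and 70.2 in control (AF020712_at), 180.5, 104.2 and 77.4 at 1 day and 181.0, 113.6 and 69.6 at 3 days. Letter c was the lowest in each group, and the higher dehydrated values were those of letter a. The estimates were 0.22 ± 0.41 at 3 days and 0.23 ± 0.41 at 1 day against control. The untested AB010963_s_at of Kcnmb1 also had its lowest signal on letter c in each group, with 33.3, 28.0 and 7.0 in control, 16, 8.5 and 3.2 at 1 day and 35.6, 43.9 and 9.3 at 3 days.

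Kcnn1 (SK1) had 55.8, 18.6 and 15.1 in control, 41.3, 9.8 and 4.8 at 1 day and 38.3, 7.0 and 57.1 at 3 days. The 3 groups overlapped, and the estimates were -0.74 ± 0.81 at 1 day against control and 0.79 ± 0.81 at 3 days against 1 day. Kcnn3 (SK3) had 2.2 to 8.5 and Kcnt1, which responds to internal sodium, had 3.8 to 28.7. Neither was tested.

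Inward rectifiers made up the largest family, and 9 of their 22 probe sets were tested. Of these 5 were higher and 4 lower at 3 days against control (median 0.09), and 6 were higher and 3 lower at 1 day against control (median 0.08). Kcnj16 (Kir5.1), which joins Kcnj10 (Kir4.1) in the potassium-buffering channels of glia, had the smallest p of any member in any comparison. Its probe set rc_AA892312_at had 37.7, 45.2 and 50.0 at 3 days, against 50.0, 119.7 and 75.7 at 1 day, and 65.9, 47.1 and 56.1 in control. The 3-day array lay below the 1-day array of its letter in all 3 letters, and 3-day c equalled 1-day a at 50.0, so that the groups touched. The log2 fold change at 3 days against 1 day was -0.75 ± 0.35, with an unadjusted p of 0.0537 and an adjusted p of 0.998. Against control it was 0.44 ± 0.35 at 1 day and -0.32 ± 0.35 at 3 days. With the letter as a block the unadjusted p at 3 days against 1 day was 0.0476 (adjusted p = 0.770), and this was 1 of 37 members (2.7 percent) past 0.05 where 5.24 percent of all tested probe sets passed.

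The other Kcnj16 probe set, X83581cds_at, had 54.8, 68.5 and 51.9 at 3 days, against 71.9, 50.5 and 68.6 at 1 day, and 54.5, 64.5 and 38.7 in control. On letter b it was higher at 3 days than at 1 day, and the estimate was -0.11 ± 0.31. The 2 probe sets of Kcnj16 correlated with r = -0.20 over the 9 arrays. Markers of blood were also lower at 3 days than at 1 day, with log2 estimates of -1.04 ± 0.23 for the beta-globin Hbb, -1.07 ± 0.26 for Hbb-b1 and -0.93 ± 0.56 for Alas2, which makes haem in red cells. Hbb had 836.2, 1023.3 and 1136.2 at 3 days against 2128.3, 2365.1 and 1697.7 at 1 day. The mural genes Tagln (-0.70 ± 0.44), Pdgfrb (-0.24 ± 0.61) and Acta2 (-0.12 ± 0.39) had negative estimates, and the endothelial genes Pecam1 (0.54 ± 0.38, groups not overlapping) and Flt1 (0.33 ± 0.33) positive ones. None of these 8 passed the adjusted test, and their part in the Kcnj16 value was not tested.

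Kcnj10 (Kir4.1), the inward rectifier of astrocytes and oligodendrocytes, was described after its values had been seen, because its probe sets split by letter. X83585cds_s_at had 63.9, 61.6 and 19.2 in control, 62.8, 74.5 and 10.9 at 1 day and 51.5, 57.9 and 32.9 at 3 days. U27558_at had 66.1, 19.7 and 5.0 in control, 77.1, 86.0 and 10.7 at 1 day and 70.7, 61.7 and 6.8 at 3 days. In both, letter c was the lowest of each group, and the 2 probe sets correlated with r = 0.80 over the 9 arrays. Of the 8 astrocyte markers 1 was lowest on letter c in all 3 groups. This was Aqp4, the water channel of astrocyte endfeet, with 123.1, 206.9 and 43.2 in control, 145.6, 205.1 and 80.3 at 1 day and 115.9, 154.2 and 33.3 at 3 days. Of the 8 oligodendrocyte markers 0 were lowest on letter c in all 3 groups, and Mog was highest on it in each group. The sum of the 8 astrocyte markers, in which Aqp4 is counted, was 11131 to 13702 on letter a, 10127 to 10725 on letter b and 6520 to 13525 on letter c, and letter c was the lowest in that sum in control and at 1 day but not at 3 days. The part of tissue composition in the Kcnj10 values was not tested.

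Against control the estimates for Kcnj10 were 0.10 ± 0.64 (X83585cds_s_at) and 0.61 ± 0.97 (U27558_at) at 3 days and -0.13 ± 0.64 and 0.95 ± 0.97 at 1 day. With the letter as a block the standard error of U27558_at fell to 0.41 and its unadjusted p at 1 day against control was 0.0456 (adjusted p = 0.958), which made it 1 of 37 members (2.7 percent) past 0.05, where 2.59 percent of all tested probe sets passed. In this fit 0 members passed at 3 days against control (5.15 percent of all). The difference at 1 day was 1.92 for letter b, 0.21 for letter a and 0.71 for letter c.

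Kcnj11 (Kir6.2) is the pore of the ATP-sensitive channel that ties excitability to the energy state of the cell. D86039_at had 164.3, 132.8 and 235.6 in control, 159.9, 106.8 and 232.0 at 1 day and 194.4, 128.6 and 247.0 at 3 days. Letter c was the highest and letter b the lowest in each group. Letter b was also the lowest in each group in the sum of 9 markers of neighbouring hypothalamic neurons, with 1484 to 1649, against 1882 to 2604 on letter a and 2160 to 3338 on letter c. The markers were not alike in this. Hcrt and Pmch were lowest on letter b in each group, while Trh was highest on it at 3 days and Cartpt at both times. The part of tissue composition in the Kcnj11 values was not tested. The estimates for D86039_at were 0.09 ± 0.36 at 3 days and -0.12 ± 0.36 at 1 day against control. D86039_g_at, designed from the same accession, had 122.1, 67.0 and 97.8 in control, 92.9, 97.7 and 105.1 at 1 day and 61.9, 101.2 and 101.0 at 3 days. It did not follow the letters, and the 2 probe sets correlated with r = 0.11.

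Kcnj8 (Kir6.1), the pore of the ATP-sensitive channel of pericytes and vascular smooth muscle, had 16.5, 6.2 and 23.3 at 3 days, against 34.1, 49.4 and 11.5 at 1 day, and 30.9, 27.3 and 17.6 in control. Its groups overlapped, with the 3-day arrays of letters a and b below the control arrays. The log2 fold change was -0.68 ± 0.59 at 3 days against control and -0.82 ± 0.59 at 3 days against 1 day. Without arrays control c and 1-day c the last became -1.34 (unadjusted p = 0.0488, adjusted p = 0.998). In the same comparison over all 9 arrays the mural genes gave -0.70 ± 0.44 (Tagln), -0.24 ± 0.61 (Pdgfrb) and -0.12 ± 0.39 (Acta2). Abcc9, the sulphonylurea receptor that pairs with Kir6.1, had 130.8, 125.5 and 96.3 at 3 days, 111.9, 90.0 and 119.8 at 1 day and 87.5, 108.3 and 96.7 in control, with estimates of 0.25 ± 0.25 at 3 days and 0.13 ± 0.25 at 1 day against control. Abcc8, the receptor that pairs with Kir6.2, had 2.4 to 27.1 and was not tested.

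Kcnj1 (ROMK), known from the kidney tubule, had tested probe sets with signals of 29.8 to 90.3 (S78154_at) and 20.4 to 43.1 (AF081365_s_at), whose estimates lay between -0.04 and 0.22 against control. The remaining 13 inward rectifier probe sets were not tested, with means of at most 21.6. They comprise the strong rectifiers Kcnj2, Kcnj4, Kcnj12 and Kcnj14 (0.7 to 37.5), the G protein-gated Kcnj3, Kcnj5, Kcnj6 and Kcnj9 (0.5 to 29.9), Kcnj13 and Kcnj15 (1.5 to 36.2), and another probe set of Kcnj1 (4.3 to 22.4). For Kcnj3, a subunit of channels opened by inhibitory receptors, U72410_s_at had 23.6, 29.9 and 14.8 at 3 days, against 4.7, 3.5 and 19.1 in control. Letters a and b were higher at 3 days and letter c was lower. With no filter its estimate was 1.18 ± 0.53 (unadjusted p = 0.0442, adjusted p = 1.00).

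Among the 2-pore channels, which carry leak current, Kcnk1 (Twik1) had 148.7, 171.1 and 123.0 in control, 141.2, 110.5 and 135.6 at 1 day and 130.9, 175.2 and 114.5 at 3 days. The groups overlapped, and its standard error of 0.26 was the lowest of the tested members, with estimates of -0.08 at 3 days and -0.18 at 1 day against control. Kcnk3, an acid-sensitive leak channel, had 9.7 to 68.3 (AF031384_at), with estimates of 0.50 ± 0.65 at 1 day against control and -0.89 ± 0.65 at 3 days against 1 day. Its other probe set (2.3 to 7.8) was not tested. Kcnk5 had 14.8 to 57.2, with estimates of 0.54 ± 0.43 at 1 day and 0.24 ± 0.43 at 3 days against control.

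Probe sets of a gene often differed in direction. Of the 8 genes with at least 2 tested probe sets, all probe sets had the same sign in 2 genes at 3 days against control (Kcnd2 and Kcnj10), in 2 at 1 day against control (Kcnd2 and Kcnj16) and in 3 at 3 days against 1 day (Kcnd2, Kcnj1 and Kcnj16). Across the 9 shared arrays the correlation of 2 probe sets of a gene ranged from -0.60 (Kcnc2) to 0.80 (Kcnj10). These coefficients describe 9 arrays that share groups and letters.

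More of the channel signal varied with the letter of the array than with the days of dehydration. Of the log2 variation of a tested member over the 9 arrays, a median of 37.5 percent lay between letters and 11.9 percent between groups. Over all tested probe sets the medians were 43.6 percent and 15.7 percent, so this is a property of the array set as a whole. The share between letters exceeded that between groups in 28 of 37 members (75.7 percent), against 73.7 percent of all. It was 92.8 percent in Kcnj11 (D86039_at), 90.9 percent in Kcnh3, 84.6 and 82.1 percent in the Kcnj10 probe sets, 83.3 percent in Kcnh4 and 81.5 percent in Kcnmb1. The share between groups was highest in Kcnc1 (51.5 percent), Kcnj16 (rc_AA892312_at, 49.2 percent) and Kcne1 (37.6 percent).

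**Figure D4:**
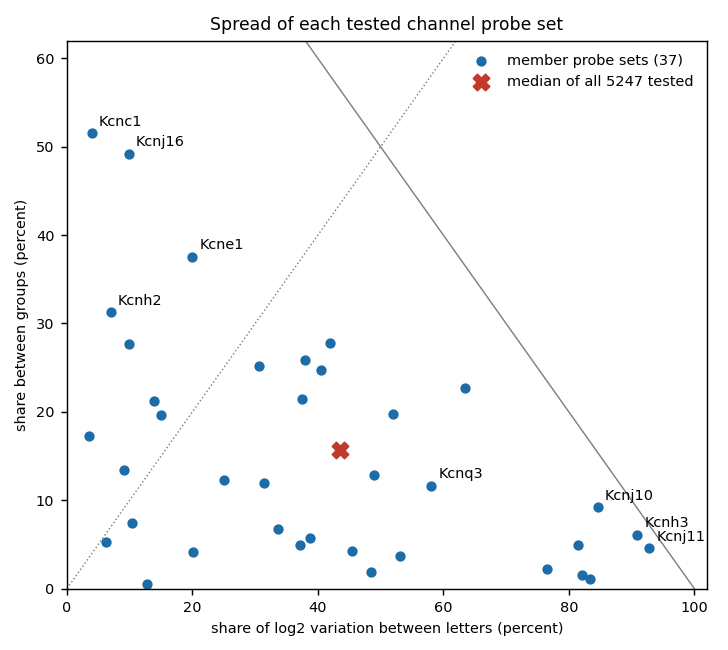
Share of the log2 variation over 9 arrays that lies between groups (y axis, percent) against the share between letters (x axis, percent) for the 37 tested potassium channel probe sets, with a cross at the median of all 5247 tested. The dotted line marks equal shares, above which 9 members lie, and the solid line a total of 100 percent. Kcnj11, Kcnh3 and Kcnj10 lie at the right end, and Kcnc1 and Kcnj16 at the upper left.

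The same order of letters in all 3 groups was found in 3 of the 37 members (8.11 percent), against 12.5 percent of all tested probe sets. These were Kcnh3 (a, c, b from high to low), Kcnj11 (D86039_at: c, a, b) and Kcnq3 (AF091247_s_at: a, b, c). Letter c was the lowest in all 3 groups in 7 of 37 members (18.9 percent), against 11.0 percent of all. These were both Kcnj10 probe sets, Kcnh4, Kcnmb1, Kcnk5, Kcnq3 and Kcnc2 (X62839mRNA_s_at).

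Within letters, the 3-day array lay on the same side of its control array in all 3 letters in 8 of 37 members (21.6 percent), against 30.1 percent of all tested probe sets. The count was 11 of 37 at 1 day against control (29.7 percent, against 26.1 percent of all) and 6 of 37 at 3 days against 1 day (16.2 percent, against 25.5 percent of all). Of the 11 at 1 day, 8 were higher (Kcnd3, Kcnf1, Kcnh1, Kcnh2, Kcnh5, Kcnj10, Kcnk3 and Kcnk5) and 3 lower (Kcne1, Kcnj11 and Kcnn1). Of the 8 at 3 days against control, 6 were higher and 2 lower, and Kcnc2 and Kcnj16 each had a probe set on either side.

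**Figure D5:**
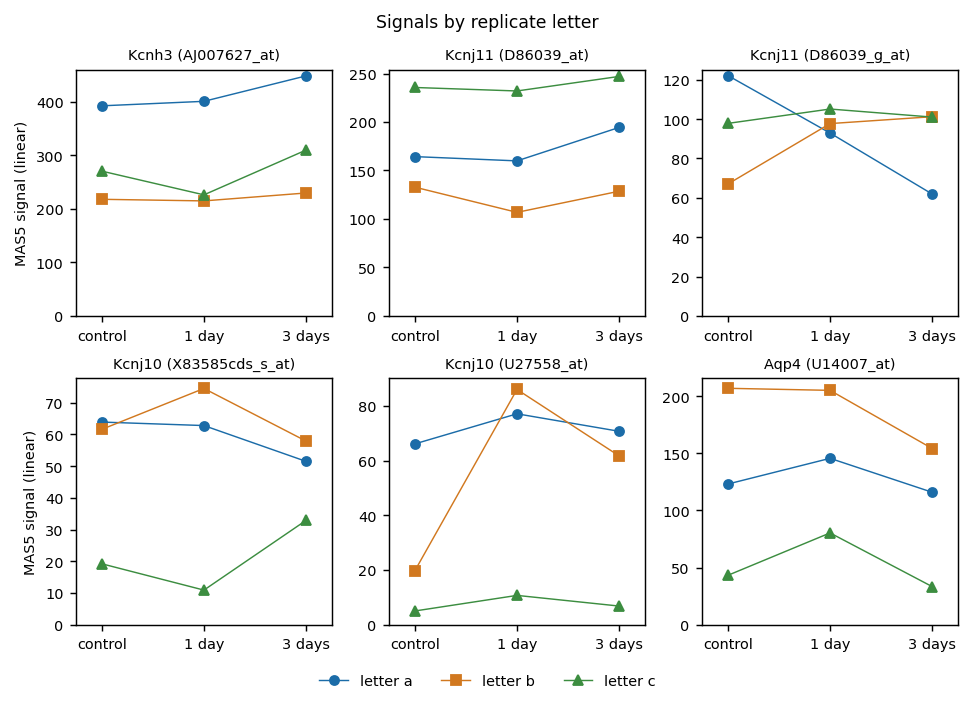
MAS5 signal (linear, y axis from 0) of Kcnh3, Kcnj11 and Kcnj10 probe sets and of Aqp4 in control, 1-day and 3-day arrays, with lines joining arrays of the same letter. In Kcnh3 and in Kcnj11 (D86039_at) the lines of the letters do not cross, and in Kcnj10 and Aqp4, the single astrocyte marker of 8 with this order, letter c is lowest in each group.

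Genes whose products bind, anchor or modify these channels did not pass the test either. Of 42 listed, 30 had a probe set and 23 were tested, and 0 passed the test in any comparison, also without adjustment. At 3 days against control 16 were higher and 7 lower (median 0.10, against 0.02 over all tested probe sets), and at 1 day 12 were higher and 11 lower (median 0.01). At 3 days against 1 day 12 were higher and 11 lower (median 0.01). Csnk2a1, a subunit of casein kinase that acts on SK channels, had the smallest p of the list at 3 days, with -0.44 ± 0.32 against control, and Csnk2b of the same kinase had -0.28 ± 0.26. The scaffold Ank3, which holds KCNQ channels at the axon initial segment, had 0.42 ± 0.35 at 1 day against control, the G protein subunit Gnao1 had -0.41 ± 0.33 and the phosphatase subunit Ppp2r1a had -0.35 ± 0.27. At 3 days against 1 day Ywhah, a 14-3-3 protein, had 0.90 ± 0.48 and the axonal adhesion protein Cntn2 had 0.49 ± 0.31.

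Genes that handle potassium outside the channels (pumps, cotransporters and Aqp4) were tested in 8 of 18 listed cases, of which 9 had a probe set. None passed the test in any comparison, also without adjustment. At 3 days against control 3 were higher and 5 lower (median -0.25), and the same counts held at 1 day against control (median -0.10) and at 3 days against 1 day (median -0.17). Atp1b1, a beta subunit of the sodium pump, had 4181.7, 4190.3 and 5339.7 at 3 days. Its signals were 3734.0, 3019.4 and 1273.3 at 1 day and 3546.9, 3466.3 and 1490.8 in control. Every 3-day signal was above every control and every 1-day signal, and control c and 1-day c were far below the rest. Groups did not overlap in 7.74 percent of all tested probe sets at 3 days against control and in 5.72 percent at 3 days against 1 day. The estimate was 0.78 ± 0.44 at 3 days against control and 0.90 ± 0.44 at 3 days against 1 day. The cotransporters Slc12a5 (0.26 ± 0.22) and Slc12a7 (-0.61 ± 0.47) lay on opposite sides at 3 days against control.

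The Kcna genes and their Kcnab partners, the related subunits left out above, numbered 9 genes with 14 probe sets. Each gene was read by its probe set with the highest mean signal, and 5 of these 9 were tested. In all, 7 of the 14 probe sets were tested, so dimmer tested ones are not counted here. All 5 estimates at 3 days against control were above 0, with a median of 0.43. Of all 5247 tested probe sets 2715 were above 0. The filter used the mean over all arrays, and Kcnab1 and Kcna5 had control means below the filter (16.4 and 19.7). Their 3-day means were 76.0 and 28.6. The untested Kcnab3, Kcna4 and Kcna2 had lower means at 3 days than in control (8.33 against 26.8, 11.0 against 14.7 and 9.5 against 11.9). The untested Kcna3 had a higher one (13.5 against 7.03). The signs of the 5 therefore do not stand for all 9 genes. Of the 5, 0 passed the adjusted test while 1 (Kcnab1) had an unadjusted p under 0.05.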

How the data were processed

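RNA of the supraoptic nucleus was measured on 9 Affymetrix rat arrays, 3 per group. The values, as deposited by the authors, are linear intensities that MAS5 produced, per the submitters' processing notes, which name no version. In them 15 values are 0, and every array had the same trimmed mean (100.1, 2 percent left out at either end). The medians of the arrays, without control probe sets, differed and ran from 26.9 to 40.4. All 68 member probe sets matched RefSeq (GRCr8) by gene ID.

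The analysis here used log2(signal + 4), which understates changes of dim genes. A mean signal of at least 23.1 was required, and 5247 probe sets were tested with limma 3.58.1 in R 4.3.3: 3 group means, all 9 arrays, an intensity trend, two-sided moderated tests with 6 residual degrees of freedom and Benjamini-Hochberg adjustment over all of them, at 0.05. Every p is from this fit unless another is named. The fit was tested on simulated data. Figures used Python 3.11.15 and matplotlib 3.10.9.

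The letters a, b and c tie arrays together across groups. Deviations from the group means over the tested probe sets had r from 0.17 to 0.47 in all 9 pairs sharing a letter, and from -0.33 to 0.12 in the 18 pairs that do not share it. Over the tested members alone the ranges were 0.03 to 0.52 and -0.42 to 0.29, which overlap. The labels do not say what a letter stands for. With it as a block, the median residual SD was 0.36, against 0.48 without.

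Members, lists and tests were chosen with earlier results of these data known. Signals are given array by array for members whose groups do not overlap, for the 3 with the smallest p per direction in each comparison, for the 8 with the highest mean signal and for further probe sets of these genes. Of the partner lists up to 3 genes with the smallest p per comparison were eligible. Kcnj10, Kcnj3, Abcc9, Kcnab1 and the named vascular and blood markers were added after their values were seen. Alternatives were other pseudocounts, filters, scalings and variance priors, the letter as a block, fits on fewer groups and fits without single arrays.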

Additional observations from a re-analysis of the deposited data

How the results depend on the processing

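Each comparison was repeated under 19 alternatives, and 0 members and 0 probe sets in all passed the adjusted threshold in each of the 3 comparisons under every one of them. The lowest adjusted p of a member was 0.873 at 3 days against control, 0.958 at 1 day against control and 0.770 at 3 days against 1 day, each in the fit with the replicate block. The block changed no call at the adjusted threshold. Members at an unadjusted p under 0.05 numbered 0 to 2, 0 to 1 and 0 to 2, and the median log2 fold change of the members ranged from -0.16 to 0.11, from -0.03 to 0.26 and from -0.27 to 0.08. The 2 at 3 days against control were found without control a, where 151 of all 5247 tested probe sets passed. In the fits with 1 such member at 1 day against control, 56 to 181 of 5247 passed. The 2 at 3 days against 1 day were found without 1-day a, where 321 of 5247 passed. Between 16 and 68 members were tested, depending on the filter. Of 23 tested probe sets named by the rule, 13, 12 and 12 had an estimate that changed sign under at least 1 alternative, and none of these had passed the test. Without array control a, Kcnc2 (M84203_s_at) had 1.43 at 3 days against control (limma, unadjusted p = 0.0235, adjusted p = 0.993) and Kcnh5 had 1.59 (limma, unadjusted p = 0.0376, adjusted p = 0.993). Without control b the same estimates were 0.30 and 0.66. With 3 arrays per group the main fit's interval stayed within a 2-fold change for 7 to 10 of the 37 members, and for 1933 to 2110 of all 5247. For most of these subunits a 2-fold change in at least 1 direction therefore lay inside the interval. A narrower interval does not show that the adjusted test would have called a 2-fold change. The 31 probe sets under the filter were tested in the fit with no filter alone. There 0 of 68 members were called, and 1 (Kcnj3, at 3 days against control) had an unadjusted p under 0.05, where 163 of all 8740 did.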
